A study of Mus musculus with 12 samples.

Results

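The Toll-like receptors (TLRs) expressed by follicular B cells, with the proteins that carry them, pair with them or signal directly below them, were followed by 10 genes chosen by symbol: *Tlr1*, *Tlr3*, *Tlr4*, *Tlr6*, *Tlr7*, *Tlr9*, *Cd180*, *Ly86*, *Unc93b1* and *Myd88*. All 10 had a row among the 13269 genes counted at 0 h and among the 13142 genes counted at 4 h. RNA sequencing had been performed on B cells sorted from the spleens of adult male mice, labelled as follicular (CD21/35- CD23+), the main recirculating mature B cell population of that organ. WT cells carried the intact X-linked allele (Gpr174+/Y). KO cells carried Gpr174-/Y, an allele of the mouse germline with an in-frame tdTomato fluorescent reporter in place of the coding exon of *Gpr174*, a gene for a G-protein-coupled receptor. This allele was made in 129 embryonic stem cells and bred onto C57BL/6J. Cells were frozen after the sort (0 h) or kept for 4 h in complete RPMI medium with no stimulus added, and 3 libraries were made for each of the 4 groups, named by genotype and time (WT 0 h, for example).

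TLRs are leucine-rich repeat receptors that recognize microbial products, and B cells are among the few lymphocytes that use them directly. TLR1 and TLR6 each pair with TLR2 at the cell surface to detect lipoproteins, and TLR4 detects lipopolysaccharide (LPS) there. CD180 (RP105) is a TLR4-like surface receptor of B cells without a TIR signaling domain, and it reaches the surface together with MD-1, the product of *Ly86*, much as TLR4 does with MD-2 (*Ly96*). TLR3, TLR7 and TLR9 detect double-stranded RNA, single-stranded RNA and CpG-containing DNA inside endosomes, where they are delivered by the chaperone UNC93B1. All TLRs except TLR3 signal through the adaptor MyD88.

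The upstream sequences of 3 of these genes are shown because the first 2 belong to the members whose change in culture differed between genotypes, and the other belongs to a member that fell in both genotypes with no difference called between them. Each is 250 bases immediately upstream of a RefSeq start (GRCm38.p6, the build of the reads), written 5' to 3' on the strand of the gene, with capitals marking any of the 4 motifs searched on both strands. The motifs were the full cAMP response element TGACGTCA, its core TGACG, which the full element contains, the PU.1 core GAGGAA and the octamer ATGCAAAT bound by Oct factors.
Tlr1, the more upstream of 2 annotated starts, chr5:64933559-64933808, minus strand: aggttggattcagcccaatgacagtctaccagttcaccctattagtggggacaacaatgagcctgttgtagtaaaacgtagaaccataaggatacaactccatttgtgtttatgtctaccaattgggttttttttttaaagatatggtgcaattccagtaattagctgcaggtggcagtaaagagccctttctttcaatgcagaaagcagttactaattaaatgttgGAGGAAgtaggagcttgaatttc
Cd180, the more upstream of 2 annotated starts, chr13:102693297-102693546, plus strand: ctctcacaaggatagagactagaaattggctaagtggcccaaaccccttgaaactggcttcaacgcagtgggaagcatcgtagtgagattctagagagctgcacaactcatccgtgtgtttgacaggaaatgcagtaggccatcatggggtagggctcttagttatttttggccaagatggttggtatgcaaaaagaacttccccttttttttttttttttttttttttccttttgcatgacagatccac
Tlr9, chr9:106222348-106222597, plus strand: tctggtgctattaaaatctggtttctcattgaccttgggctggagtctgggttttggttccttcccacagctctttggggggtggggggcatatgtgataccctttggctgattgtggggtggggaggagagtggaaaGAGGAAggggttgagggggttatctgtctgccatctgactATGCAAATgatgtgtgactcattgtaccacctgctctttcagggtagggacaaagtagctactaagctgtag
The *Tlr1* window shown held GAGGAA, which 23.3% of 32851 mouse promoter windows of this length also held. The *Cd180* window shown and the windows of the other *Tlr1* and *Cd180* starts held none of the motifs. The *Tlr9* window held GAGGAA and the octamer, the latter present in 1.6% of windows. The windows of *Ly86* and *Tlr3*, which also fell in both genotypes with no difference of the changes called, held none of the 4 motifs. TGACGTCA (1.55% of windows) was absent from the windows of all 7 members with an entry, and TGACG (17.8%) occurred only in a *Tlr6* window. These matches describe letters and were not tested as binding sites. *Tlr4*, *Tlr7* and *Unc93b1* were without an entry.

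The libraries held 6098941 to 11618787 counts, and levels are given as CPM, read counts set to a common library size after scaling for composition. *Gpr174* itself was lower in every KO library than in any WT library of the same time, at 152 ± 4.26 CPM (WT) against 74.7 ± 1.76 CPM (KO) at 0 h and 161.7 ± 8.36 against 109.6 ± 7.52 CPM at 4 h (SD, n = 3). Its KO reads rose over culture (0.55 ± 0.07 on the log2 scale, edgeR adjusted p = 2.38e-06). The remaining KO reads were not separated by exon. The gene of CD23 (*Fcer2a*) stood at 1244 to 1570 CPM at 0 h. *Cr2*, which encodes CD21/35, was at 873 to 1122 CPM at 0 h although the label gives the cells as CD21/35-. The summed markers of T cells were at 19.2 to 37.4 CPM, mostly *Lck*, with *Cd3e* at most at 2.89 CPM, and those of NK cells at 3.29 to 14.3 CPM. Neutrophil markers summed to 20.1 to 123.8 CPM and erythroid markers to 41.97 to 126.5 CPM, each highest in a KO 0 h library. WT 4 h replicate 3 stood apart from the other WT 4 h libraries in interferon-stimulated genes, a list of 20 genes chosen after the data were seen, of which 19 were highest in that library of the 3. Results that rest on it are given with and without it.

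Before culture the members spanned a wide range of levels. Per kilobase of exon, the only scale used here to compare levels between genes, the order in WT at 0 h was *Ly86*, *Unc93b1*, *Cd180*, *Tlr1*, *Tlr9*, *Tlr7*, *Myd88*, *Tlr4*, *Tlr3* and *Tlr6*. *Ly86* stood at 229 ± 18.05 CPM per kilobase (SD, n = 3) and *Unc93b1* at 201 ± 3.71. *Cd180* followed at 175 ± 11.1, so that the genes of CD180 and its partner MD-1 were both near the top. *Tlr1* was at 89.4 ± 5.29 and *Tlr9* at 63.2 ± 4.69, and these were the most abundant of the TLRs proper. *Tlr7* was at 23.2 ± 2.60 CPM per kilobase and *Myd88* at 12.1 ± 0.63. *Tlr4* was at 7.03 ± 0.64, while *Tlr3* at 2.84 ± 0.67 and *Tlr6* at 2.51 ± 0.30 were the least abundant and their libraries overlapped. The order in KO at 0 h was the same, again with *Tlr3* and *Tlr6* as the only neighbours whose libraries overlapped.

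**Figure D1:**
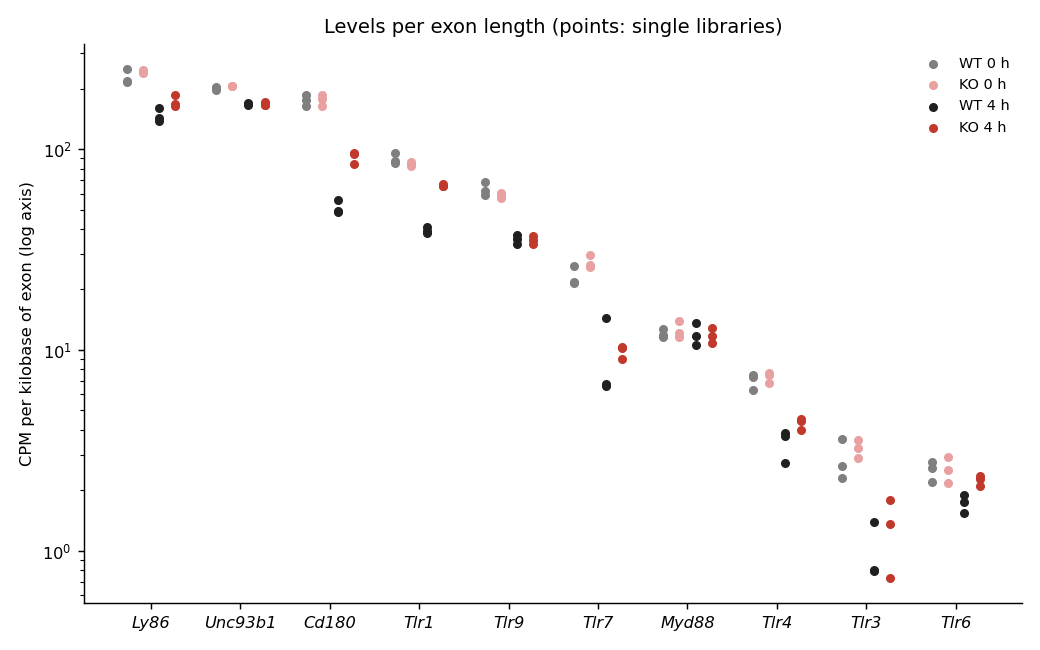
Level per kilobase of exon (log axis) of each gene, ordered by the WT 0 h mean, with 1 point per library and 3 libraries per group. *Ly86*, *Unc93b1* and *Cd180* lie above 160 CPM per kilobase in all libraries at 0 h, and at 4 h the *Cd180* and *Tlr1* points of WT separate downward from those of KO.

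The genotype contrast at 0 h asked whether GPR174 deficiency altered these genes in cells that had not been cultured. With edgeR (quasi-likelihood test, Benjamini-Hochberg adjustment over all genes, called at an adjusted p under 0.05), 0 of the 10 members were called, beside 0.987% of the 11345 genes tested (0.502% higher in WT and 0.485% higher in KO). At an unadjusted p under 0.05 there was 1, *Tlr7*, and DESeq2 called 0. In WT 0 h replicates 1 to 3 *Tlr7* was at 104, 85.4 and 86.6 CPM, and in KO at 105, 117 and 102 CPM. The groups overlapped through WT replicate 1. The log2 fold change (WT over KO) was -0.24 ± 0.08 (standard error, as after every log2 fold change, edgeR adjusted p = 0.207), and without WT 0 h replicate 1 it was -0.33 (edgeR adjusted p = 0.0421). At 0 h the interferon-stimulated genes summed to 1253 to 1360 CPM (WT) and 1463 to 1617 CPM (KO), and their part in this value was not tested. *Unc93b1* was the member whose groups did not overlap at 0 h, lower in WT, as were 8.07% of all genes (18.3% in either direction). For the other 9 members the log2 fold change lay between -0.20 (*Tlr3*) and 0.09 (*Tlr9*). For *Cd180* 2 standard errors on either side reached from -0.13 to 0.09, and for *Tlr1* from -0.04 to 0.18.

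Culture without stimulus was followed by lower RNA of nearly all members, and CD180 and TLR1 were the members in which the loss depended on genotype. In WT cells 9 of the 10 members fell over 4 h, where 33.1% of the 11572 genes tested were called and 18% were called lower. In KO cells 8 of 10 fell, where 23.3% were called and 13% were called lower. No member rose in either genotype by edgeR, at an unadjusted p under 0.05 or by DESeq2. The median change over the members was -0.93 in WT and -0.61 in KO, against 0.00 in each over all genes. The libraries of the times did not overlap in the members that fell, and 20.9% of all genes in WT and 21.3% in KO had non-overlapping libraries that were lower at 4 h (40.9% and 41.9% in either direction). The interaction, the WT change minus the KO change, was called for *Tlr1* and *Cd180*, 2 of 10 members beside 6.39% of all genes (2.45% with the more positive change in WT and 3.94% in KO, the direction of both). These values come from bulk RNA, so fewer cells of a type and less RNA per cell cannot be told apart. Without composition scaling the median of all genes shifted to 0.11 in WT and 0.09 in KO. Markers of macrophages and monocytes moved with culture as well. Of 17 such genes 16 had rows at 0 h and 10 at 4 h, and their summed level ran from 541 to 550 CPM (WT) and 540 to 597 CPM (KO) at 0 h and from 454 to 462 CPM (WT) and 632 to 660 CPM (KO) at 4 h, most of it from *Cybb*, which B cells also express. *C1qa*, *C1qb* and *C1qc* averaged 1.58 to 5.30 CPM at 0 h and were under the cutoff of 10 reads per row at 4 h, and the mean of *Csf1r* went from 9.16 to 2.73 CPM in WT and from 10.3 to 2.12 CPM in KO. The mean of *Vcam1* went from 10.02 to 0.32 CPM in WT and from 8.64 to 0.34 CPM in KO. That of *Lyz2* went from 16.04 to 5.67 CPM in WT and from 21.3 to 10.2 CPM in KO. Others of the list did not move in a single direction. *Mpeg1* averaged 22.0 CPM before and 37.5 CPM after culture in WT, and 33.5 and 17.97 CPM in KO. *Emr1* averaged 5.77 and 4.65 CPM in WT and 3.28 and 7.27 CPM in KO. *Cd68* averaged 18.2 and 15.9 CPM in WT. The part of these markers in the fall of the members was not tested.

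**Figure D2:**
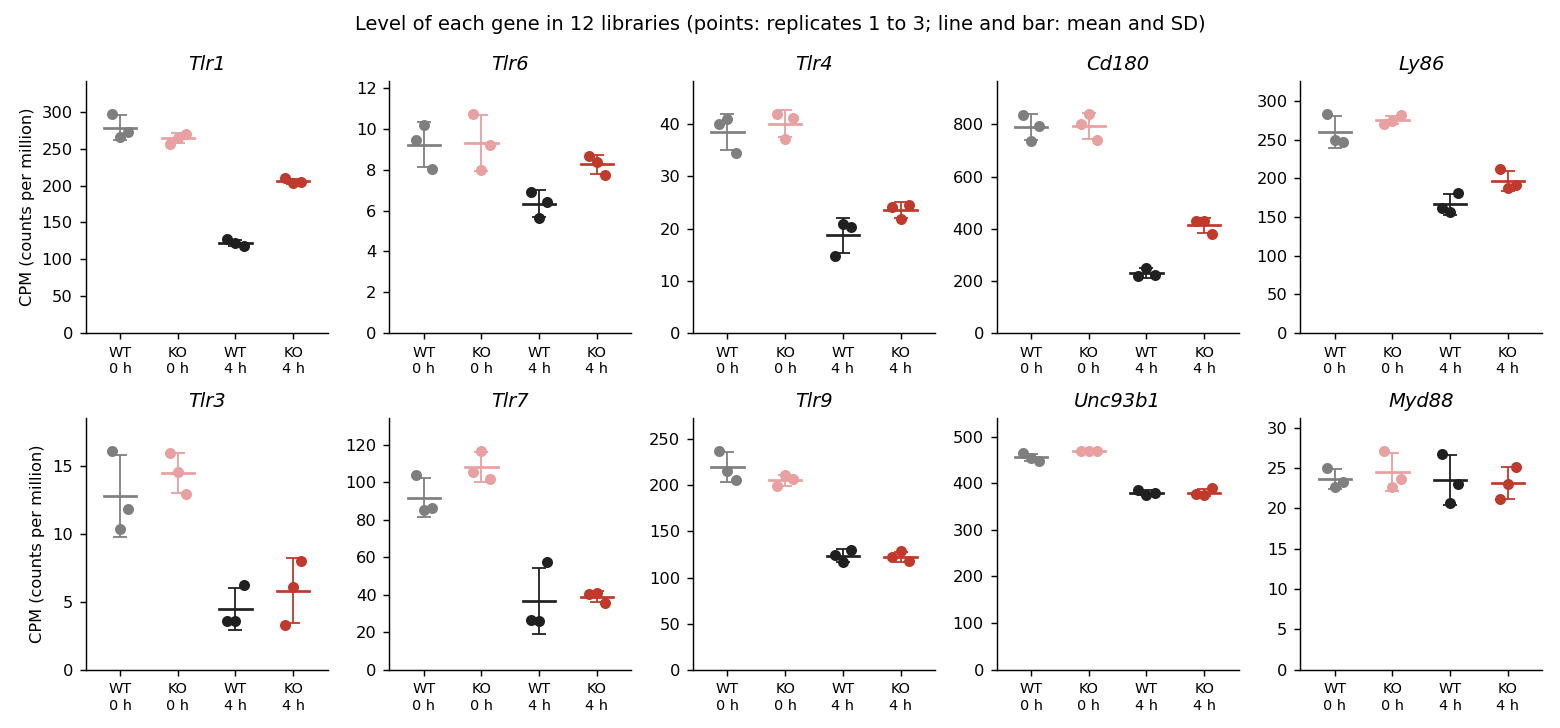
CPM of each gene in every library (points), with the group mean (line) and SD (bar), each axis starting at 0. For *Tlr1* and *Cd180*, and by a smaller margin for *Ly86* and *Tlr4*, the KO 4 h libraries lie between the 0 h libraries and the WT 4 h libraries. *Tlr9*, *Unc93b1* and *Myd88* overlap between genotypes at 4 h.

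With all libraries *Cd180* had the largest fold decrease of the 10 genes in WT cells, while in KO cells *Tlr7* and *Tlr3* fell further. The WT ranking was not secure, as the WT changes overlapped over the 18 alternative fits. They ran from -1.838 to -1.665 for *Cd180*, from -1.825 to -1.262 for *Tlr3* and from -1.791 to -1.08 for *Tlr7*. *Cd180* (chr13:102693558-102739629, plus strand, GRCm38) was at 837, 737 and 794 CPM in WT 0 h replicates 1 to 3 and at 802, 841 and 742 CPM in KO 0 h. After culture it was at 219, 251 and 222 CPM in the WT libraries and at 429, 431 and 379 CPM in the KO libraries. The genotypes overlapped at 0 h and every KO library exceeded every WT library at 4 h. WT cells kept 29.2% of the 0 h level (26.5% to 32.2% at 2 standard errors) and KO cells 52.0% (47.3% to 57.1%). The log2 fold change over culture was -1.77 ± 0.07 in WT (edgeR adjusted p = 2.79e-14) and -0.94 ± 0.07 in KO (1.11e-09). The difference between these changes was -0.83 ± 0.10 (edgeR adjusted p = 4.6e-06), and it remained called in all 17 alternative fits, at -0.89 to -0.78. At 4 h alone *Cd180* was 1.79-fold higher in KO (log2 fold change WT over KO -0.84 ± 0.07, edgeR adjusted p = 8.8e-07), and in that contrast 3 of 10 members were called, all higher in KO, beside 10.9% of the 11123 genes tested and 5.67% called higher in KO. The contrasts at 4 h and over culture share the 4 h libraries and are not independent. Of the exon length of *Cd180*, 4.0% overlaps *Mast4* on the opposite strand, and the strand setting of the counts was not stated.

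*Ly86* (chr13:37345208-37419036, plus strand), whose product MD-1 accompanies CD180, changed less. It was at 283, 249 and 246 CPM in WT 0 h replicates 1 to 3, at 270.3, 274 and 282 CPM in KO 0 h, at 162, 156 and 181 CPM in WT 4 h and at 211, 187 and 191 CPM in KO 4 h. Both genotypes fell without overlap between the times, by 0.64 ± 0.07 on the log2 scale in WT (edgeR adjusted p = 2.1e-07) and by 0.49 ± 0.07 in KO (1.46e-05). The difference of these changes was -0.15 ± 0.10 and was not called (edgeR adjusted p = 0.464). At 4 h *Ly86* was 1.18-fold higher in KO (log2 fold change -0.24 ± 0.07, edgeR adjusted p = 0.0404), with no overlap between the groups. The edgeR call was lost without WT 4 h replicate 1 (-0.22, edgeR adjusted p = 0.0794), WT 4 h replicate 2 (-0.19, 0.102), KO 4 h replicate 1 (-0.18, 0.199), KO 4 h replicate 2 (-0.27, 0.0651) or KO 4 h replicate 3 (-0.26, 0.0840). The summed macrophage list, given above, was also higher in KO than in WT at 4 h. *Cybb*, most of that sum, averaged 382 CPM (WT) and 585 CPM (KO). Other genes of the list went either way, with *Mpeg1* at 37.5 and 17.97 CPM and *Emr1* at 4.65 and 7.27 CPM. The part of this list in the *Ly86* value was not tested.

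Because receptor and partner fell to different extents, their ratio shifted. *Cd180* reads per *Ly86* read were 2.96, 2.96 and 3.22 in WT 0 h replicates 1 to 3 and 2.97, 3.07 and 2.64 in KO 0 h. At 4 h the ratio was 1.35, 1.61 and 1.22 in WT and 2.03, 2.31 and 1.98 in KO. The WT 4 h libraries were lowest and did not overlap those of any other group. An exact two-sided permutation test gave p = 0.1 for WT against KO at 4 h and for culture in each genotype (n = 3 per group), which is the smallest p that 3 libraries against 3 can give, and p = 0.6 at 0 h.

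Among the surface TLRs, *Tlr1* differed most between genotypes. *Tlr1* (chr5:64924679-64933563, minus strand) was at 297, 266 and 273 CPM in WT 0 h replicates 1 to 3 and at 257, 265 and 270.4 CPM in KO 0 h. After culture it was at 127, 122 and 119 CPM in WT and at 209.8, 204 and 204 CPM in KO. All KO 4 h libraries lay above all WT 4 h libraries and below all libraries at 0 h. WT cells kept 43.9% of the 0 h level (40.5% to 47.5% at 2 standard errors) and KO cells 78.0% (72.2% to 84.3%). The log2 fold change over culture was -1.19 ± 0.06 in WT (edgeR adjusted p = 6.77e-13) and -0.36 ± 0.06 in KO (5.49e-05). Their difference was -0.83 ± 0.08 (edgeR adjusted p = 3.87e-07) and remained called in all 17 alternative fits, at -0.86 to -0.78. At 4 h *Tlr1* was 1.68-fold higher in KO, -0.75 ± 0.06 on the log2 scale (edgeR adjusted p = 3.53e-07).

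Other lists moved with genotype at 4 h beside *Cd180* and *Tlr1*. The summed level of 7 of 8 marginal zone B cell genes, mostly *Cr2*, ran from 243.5 to 288 CPM (WT) and from 381 to 429 CPM (KO), after 1223 to 1302 and 1073 to 1255 CPM at 0 h. Of 5 genes of the follicular list 4 had rows, and these summed to 1762 to 1917 CPM (WT) and 2358 to 2552 CPM (KO). At 0 h they had been higher in WT, at 2970 to 3144 CPM against 2515 to 2814 CPM in KO. The 8 general B cell genes summed to 5716 to 6003 CPM (WT) and 6674 to 6856 CPM (KO). Of the genes with rows in these 3 lists, *Asb2* was listed at 0 in a WT 4 h library, and its mean was at most 1.19 CPM in any group. Single genes of these lists went the other way, with *Cxcr5* at a mean of 318 CPM (WT) and 229.7 CPM (KO) and *Dtx1* at 75.1 and 64.6 CPM. So did *Cd79a* at 834 and 716 CPM, *Ebf1* at 303 and 280 CPM and *S1pr3* at 2.89 and 2.43 CPM. The lists of plasma cells (519 to 571 CPM in WT, 443 to 478 CPM in KO) and dendritic cells (9.20 to 14.4 and 4.74 to 8.16 CPM) were higher in WT. Most of the plasma cell sum was *Irf4*, at a mean of 434.9 CPM (WT) and 371.7 CPM (KO), a gene also described below among the IRF factors. The part of these lists in the *Cd180* and *Tlr1* values was not tested.

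*Tlr6* (chr5:64952031-64960097, minus strand), the close relative and neighbour of *Tlr1*, rested on few reads, 36 to 91 per library. It was at 9.46, 10.2 and 8.04 CPM in WT 0 h replicates 1 to 3, at 10.7, 7.999 and 9.22 CPM in KO 0 h, at 6.94, 5.63 and 6.43 CPM in WT 4 h and at 8.69, 8.37 and 7.75 CPM in KO 4 h. The WT 4 h libraries were below all others, and the KO libraries of the 2 times overlapped. The WT change was -0.54 ± 0.19 (edgeR adjusted p = 0.0316) and the KO change -0.18 ± 0.18 (0.542). The difference, -0.36 ± 0.26, was not called (edgeR adjusted p = 0.541), and its 2 standard errors reached from -0.88 to 0.16, a range that holds both no difference and the *Tlr1* value. The WT call was lost without WT 0 h replicate 1 (-0.52, edgeR adjusted p = 0.0618), WT 0 h replicate 2 (-0.46, 0.0953), WT 4 h replicate 2 (-0.46, 0.103) or WT 4 h replicate 3 (-0.55, 0.0726), with DESeq2 (-0.54, 0.0626), with library totals alone (-0.43, 0.0735) and with the WT libraries fitted alone (-0.54, 0.0794). Of the 50-base words in *Tlr6* exons 12.3% also occur in *Tlr1*, and 14.8% of those in *Tlr1* occur in *Tlr6*, so a read confined to such a word cannot be assigned to either gene. *Tlr1* reads per *Tlr6* read were 26.05 to 33.99 (WT) and 23.9 to 33.1 (KO) before culture and 18.3 to 21.6 (WT) and 24.1 to 26.4 (KO) after it.

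*Tlr4* (chr4:66827584-66930284, plus strand), the LPS receptor, fell in both genotypes. It was at 40.0, 40.9 and 34.5 CPM in WT 0 h replicates 1 to 3, at 42.0, 37.2 and 41.1 CPM in KO 0 h, at 14.8, 21.0 and 20.4 CPM in WT 4 h and at 24.1, 21.8 and 24.6 CPM in KO 4 h. The times did not overlap in either genotype, and at 4 h every KO library was above every WT library. The change was -1.03 ± 0.12 in WT (edgeR adjusted p = 8.08e-07) and -0.77 ± 0.12 in KO (4.43e-05). Neither the difference of the changes (-0.25 ± 0.17, edgeR adjusted p = 0.498) nor the genotype contrast at 4 h (-0.32 ± 0.14, edgeR adjusted p = 0.175) was called. Of all genes tested 13.5% had non-overlapping libraries that were lower in WT at 4 h, as did 5 of the 10 members (27.9% of all genes did not overlap in either direction), namely *Tlr1*, *Tlr4*, *Tlr6*, *Cd180* and *Ly86*.

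**Figure D3:**
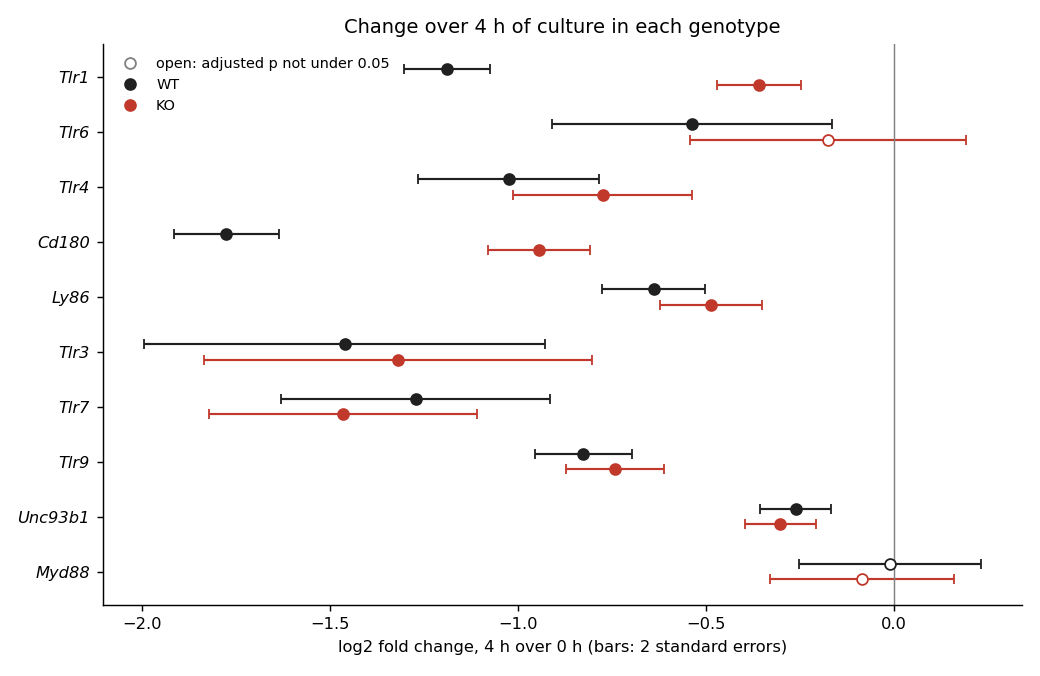
Log2 fold change of each gene from 0 h to 4 h in WT (black) and KO (red), with bars of 2 standard errors and filled symbols where the adjusted p was under 0.05. The WT and KO intervals are apart for *Tlr1* and *Cd180* and overlap for the other 8 genes.

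Of the endosomal receptors *Tlr9* was the most abundant and fell in WT and in KO cells. *Tlr9* (chr9:106222598-106226883, plus strand) was at 238, 216 and 206 CPM in WT 0 h replicates 1 to 3, at 199, 211 and 207 CPM in KO 0 h, at 124, 117 and 130.3 CPM in WT 4 h and at 123, 128 and 117 CPM in KO 4 h. The genotypes overlapped at both times and the times did not overlap. The change was -0.83 ± 0.06 in WT (edgeR adjusted p = 1.63e-09) and -0.74 ± 0.07 in KO (2.13e-08). The difference, -0.08 ± 0.09, was not called (edgeR adjusted p = 0.719), and 2 standard errors on either side reached from -0.27 to 0.10.

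*Tlr7* (chrX:167304929-167330558, minus strand) fell in both genotypes, and a single library decided its comparison between them. At 4 h it was at 26.8, 26.3 and 57.3 CPM in WT replicates 1 to 3 and at 40.6, 40.9 and 35.7 CPM in KO. The first 2 WT libraries lay below all KO libraries and the remaining one above them. The change was -1.27 ± 0.18 in WT (edgeR adjusted p = 8.75e-06) and -1.47 ± 0.18 in KO (2.38e-06), and the genotype contrast at 4 h was -0.05 ± 0.22 (edgeR adjusted p = 0.931). Without WT 4 h replicate 3 the WT change was -1.79 and the genotype contrast became -0.56 ± 0.12 (edgeR adjusted p = 0.00719), which made *Tlr7* a further member called higher in KO. Without WT 4 h replicate 1 or replicate 2 that contrast was 0.13 or 0.14. The difference of the culture changes was 0.19 ± 0.25 (edgeR adjusted p = 0.774) with all libraries and -0.33 ± 0.15 (0.262) without WT 4 h replicate 3.

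*Tlr3* (chr8:45395665-45411080, minus strand) was scarce at 4 h, with 22 to 59 reads per library. It was at 16.1, 10.3 and 11.8 CPM in WT 0 h replicates 1 to 3, at 15.9, 14.5 and 12.9 CPM in KO 0 h, at 3.55, 3.597 and 6.22 CPM in WT 4 h and at 3.29, 6.10 and 8.02 CPM in KO 4 h. The genotypes overlapped at both times. Both genotypes fell, by 1.46 ± 0.27 on the log2 scale in WT (edgeR adjusted p = 0.000197) and by 1.32 ± 0.26 in KO (0.000634), and the difference of -0.14 ± 0.37 was not called (edgeR adjusted p = 0.901). The interferon-stimulated genes summed to 549, 567 and 967 CPM in WT 4 h replicates 1 to 3 and to 722, 778 and 702 CPM in KO 4 h, so that they were highest in the library with the highest *Tlr7* and *Tlr3* of the WT 4 h group. They had summed to 1253 to 1617 CPM at 0 h, above every library at 4 h. Their part in the *Tlr7* and *Tlr3* values was not tested.

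**Figure D4:**
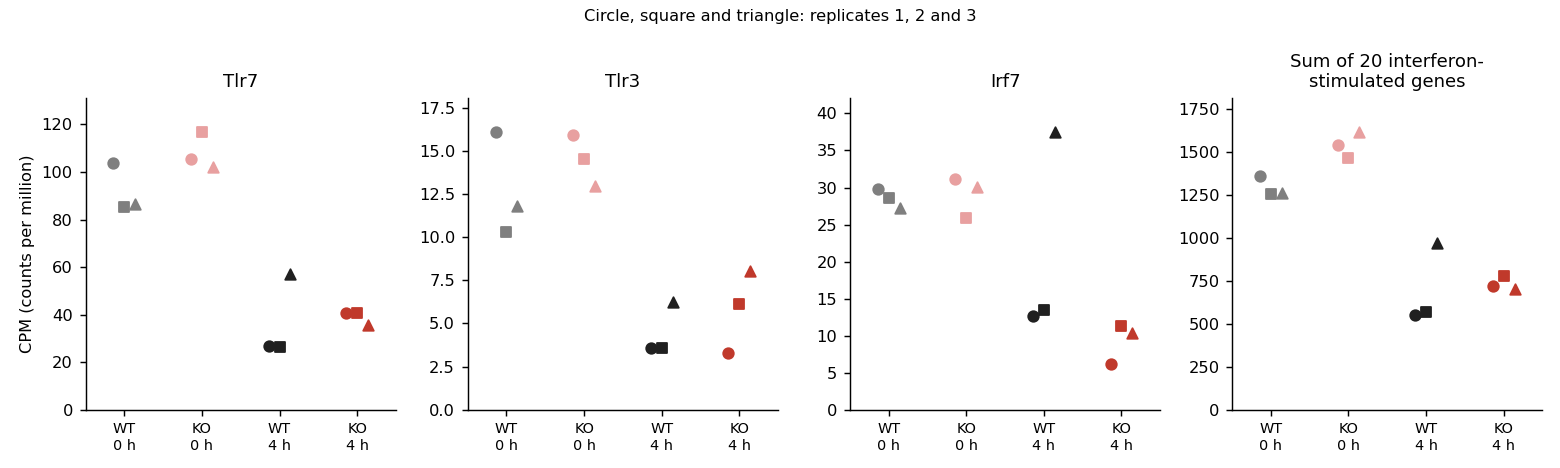
CPM of *Tlr7*, *Tlr3* and *Irf7* and the summed CPM of 20 interferon-stimulated genes in each library, with circles, squares and triangles for replicates 1, 2 and 3 and axes from 0. WT 4 h replicate 3 (black triangle) lies above the other WT 4 h libraries in all 4 panels.

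*Unc93b1* (chr19:3935186-3949340, plus strand), the chaperone of the endosomal receptors, varied little. It ran from 447 to 464 CPM (WT) and 468 to 470.0 CPM (KO) at 0 h and from 375 to 385 CPM (WT) and 374 to 389 CPM (KO) at 4 h. The fall was small in WT (-0.26 ± 0.05, edgeR adjusted p = 0.000181) and in KO (-0.30 ± 0.05, 5.5e-05), and the difference was 0.04 ± 0.07 (edgeR adjusted p = 0.820). *Myd88* (chr9:119335934-119341411, minus strand) was the member called in no contrast. It ran from 22.6 to 25.01 CPM (WT) and 22.7 to 27.2 CPM (KO) at 0 h and from 20.6 to 26.8 CPM (WT) and 21.2 to 25.1 CPM (KO) at 4 h, and its groups overlapped in all comparisons. The change was -0.01 ± 0.12 in WT and -0.09 ± 0.12 in KO, and 2 standard errors reached from -0.25 to 0.23 and from -0.33 to 0.16. *Myd88* ranked above *Tlr7* per kilobase at 4 h in both genotypes, with overlapping libraries in WT, and below it at 0 h. Of *Myd88* exon length 11.4% lies opposite *Acaa1a*, whose reads the counting may not have separated.

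The order of levels per kilobase at 4 h shifted accordingly. In WT 4 h *Unc93b1* (168 ± 2.27 CPM per kilobase) stood above *Ly86* (147 ± 11.6), and *Cd180* had dropped to 51.2 ± 3.94, near *Tlr1* at 39.2 ± 1.40 and *Tlr9* at 35.6 ± 1.98. In KO 4 h *Ly86* (173 ± 11.5) and *Unc93b1* (168 ± 3.56) overlapped. *Cd180* at 91.6 ± 6.47 and *Tlr1* at 66.0 ± 1.09 CPM per kilobase remained well above *Tlr9* at 35.3 ± 1.56 there. *Tlr3* took the lowest place in both genotypes at 4 h.

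The wider pathway was described by 65 genes in 5 lists. At 0 h, 56 of them passed the filter and 0 were called by edgeR, beside 0.987% of all genes tested. At an unadjusted p under 0.05 there were 7 higher and 4 lower in WT, and DESeq2 called 2, *Tab2* and *Irf1*. At 4 h, 57 were tested, with 6 called higher in each genotype, beside 5.22% and 5.67% of all genes, and the median was -0.03 against 0.00. Over culture, 58 were tested, of which 7 rose and 21 fell in WT (15.1% and 18% of all genes) and 3 rose and 17 fell in KO (10.3% and 13%), with medians of -0.15 and -0.05. The interaction was called for 8 of 58, beside 6.39% of all genes, of which 5 had the more positive change in WT and 3 in KO (2.45% and 3.94% of all genes).

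The other TLRs and coreceptors were scarce. Of 10 listed genes 7 had a row at 0 h and 6 at 4 h, and *Tlr5*, *Tlr11* and *Lbp* had none at either time. *Tlr2*, the partner of TLR1 and TLR6, was at 5.38 to 9.24 CPM before and 3.597 to 9.20 CPM after culture of WT cells, a change of -0.26 ± 0.26 that was not called. *Ly96*, which encodes the TLR4 partner MD-2, averaged 6.91 ± 0.68 CPM (WT) and 4.74 ± 0.33 CPM (KO) at 0 h and 3.44 ± 0.29 CPM (WT) and 4.87 ± 0.44 CPM (KO) at 4 h (SD, n = 3). Its libraries were highest in WT at 0 h and lowest in WT at 4 h. The WT fall was called (-1.01 ± 0.22, edgeR adjusted p = 0.00121), the KO value was 0.03 ± 0.22 (0.939), and the difference of -1.04 ± 0.31 was not called (edgeR adjusted p = 0.0514). *Cd36*, a lipid scavenger receptor that assists TLR2 heterodimers, fell in WT (-1.13 ± 0.17, edgeR adjusted p = 1.61e-05) and in KO (-1.19 ± 0.17, 1.25e-05). *Tlr12* fell in WT (-0.91 ± 0.35, edgeR adjusted p = 0.0483) at 1.25 to 4.37 CPM, a call lost in 14 of 18 alternative fits.

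Of 15 chaperone, trafficking and processing genes 2 were called higher in WT and 4 higher in KO at 4 h, beside 5.22% and 5.67% of all genes. Higher in WT were *Hsp90b1* (gp96), the chaperone that folds most TLRs (0.28 ± 0.06, edgeR adjusted p = 0.00423), and its cofactor *Cnpy3* (0.36 ± 0.07, 0.00311). Higher in KO were *Lgmn*, an endosomal protease that can cleave TLR9 (-0.33 ± 0.07, edgeR adjusted p = 0.00516), and *5430427O19Rik*, the mouse gene of the SLC15A4-bound adaptor TASL (-0.31 ± 0.07, 0.0119), a call lost without KO 4 h replicate 3 (adjusted p = 0.0743). *Hsp90b1* averaged 797 CPM (WT) and 810 CPM (KO) at 0 h and 777 CPM (WT) and 638 CPM (KO) at 4 h. Its fall was called in KO (-0.34 ± 0.06, edgeR adjusted p = 0.000145), and the WT value was -0.04 ± 0.06 (0.670). *Cnpy3* averaged 86.8 CPM (WT) and 93.0 CPM (KO) at 0 h and 116 CPM (WT) and 90.7 CPM (KO) at 4 h, and its WT and KO changes differed by 0.45 ± 0.10 (edgeR adjusted p = 0.00520). The endosomal transporter *Slc15a4* fell in WT (-0.65 ± 0.08, edgeR adjusted p = 2.5e-06), and its changes differed by -0.49 ± 0.12 (0.0119). *Slc15a3*, a related transporter, fell in WT by 1.40 ± 0.21 on the log2 scale (edgeR adjusted p = 2.46e-05). It also fell in KO (-0.82 ± 0.21, edgeR adjusted p = 0.00588), and the difference of -0.58 ± 0.30 was not called (0.339). *Ifi30*, a lysosomal thiol reductase, fell in WT (-0.51 ± 0.07) and in KO (-0.66 ± 0.07), as did the protease *Ctss* (-0.35 ± 0.06 and -0.24 ± 0.06), all with edgeR adjusted p of at most 0.00275. The *Ctss* call in KO was lost with library totals alone (adjusted p = 0.0574). *Ctsb*, another protease, fell in WT (-0.34 ± 0.10, edgeR adjusted p = 0.00869) and in KO (-0.41 ± 0.10, 0.0031). Its WT call was lost without WT 0 h replicate 2 or WT 4 h replicates 2 or 3.

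Of 21 adaptors, kinases and ubiquitin ligases tested, *Ikbkb* was the only one called at 4 h, beside 10.9% of all genes (5.67% higher in KO). This kinase, which activates NF-kB below the receptors, was at 131 to 162.5 CPM (WT) and 172 to 186 CPM (KO) at 4 h (-0.29 ± 0.07, edgeR adjusted p = 0.0184), a call lost without WT 4 h replicates 1 or 3 or KO 4 h replicates 1 or 2, with adjusted p up to 0.105. Over culture 3 of the 21 rose and 6 fell in WT, beside 15.1% and 18% of all genes. In KO cells 1 rose and 5 fell, beside 10.3% and 13%. *Ikbkb* fell in WT (-0.79 ± 0.07, edgeR adjusted p = 1.28e-08) and in KO (-0.40 ± 0.07, 0.000182). *Traf3* fell in WT (-0.73 ± 0.07, edgeR adjusted p = 4.28e-08) and in KO (-0.51 ± 0.07, 1.16e-05), and *Pik3ap1* (BCAP), which links TLRs to PI3-kinase, fell by 0.84 ± 0.08 and 0.76 ± 0.08 on the log2 scale (edgeR adjusted p = 4e-08 and 4.01e-07). *Peli1*, a ubiquitin ligase of the TLR pathway, rose in both, by 0.45 ± 0.07 in WT (edgeR adjusted p = 1.29e-05) and 0.45 ± 0.07 in KO (2.94e-05).

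All 6 IRF transcription factors were tested. Over culture *Irf5* fell in WT (-0.45 ± 0.06, edgeR adjusted p = 1.15e-05) and in KO (-0.28 ± 0.06, 0.00262). *Irf3* fell in WT (-0.26 ± 0.06, edgeR adjusted p = 0.00263) and in KO (-0.29 ± 0.06, 0.00157), the WT call being lost with library totals alone. *Irf8* was at 291.5 to 341.7 CPM (WT) and 342.3 to 348.8 CPM (KO) at 0 h (-0.17 ± 0.06, edgeR adjusted p = 0.2295). It fell in WT (-0.37 ± 0.06, edgeR adjusted p = 9.28e-05) and in KO (-0.20 ± 0.06, 0.0259). The KO call was lost with library totals alone and without any 1 KO library, and the difference of the changes was not called. At 4 h *Irf8* was higher in KO (-0.33 ± 0.06, edgeR adjusted p = 0.00179), at 298 to 307 CPM against 222 to 253 CPM in WT. *Irf4* was higher in WT at 4 h (0.23 ± 0.06, edgeR adjusted p = 0.0344), at 0.15 to 0.27 over all 12 alternative fits. This call was lost with the replicate block and without WT 4 h replicate 1 or any 1 KO 4 h library. *Irf7*, the interferon regulator below TLR7 and TLR9, averaged 28.6 CPM (WT) and 29.05 CPM (KO) at 0 h. Over culture it fell in KO (-1.65 ± 0.295, edgeR adjusted p = 0.000259), and the WT value was -0.37 ± 0.26 (0.300). At 4 h it was at 12.6, 13.5 and 37.5 CPM in WT replicates 1 to 3 and at 6.19, 11.2 and 10.3 CPM in KO. Every WT library was above every KO library, and replicate 3 was far above the other WT libraries. Its log2 fold change was 1.24 ± 0.35 (edgeR adjusted p = 0.0301), and 0.49 (edgeR adjusted p = 0.246) without WT 4 h replicate 3. The call was also lost with DESeq2 and without any 1 KO 4 h library. *Irf1* fell in WT (-0.71 ± 0.09, edgeR adjusted p = 1.31e-06) and more in KO (-1.17 ± 0.09, 1.93e-09), with a difference of 0.46 ± 0.12 (0.0248) whose call was lost in 6 of 17 alternative fits, with adjusted p up to 0.0876.

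Among 11 negative regulators tested at 4 h, *Inpp5d* and *Irak3* were called and both were higher in WT. Of all genes 10.9% were called and 5.22% were called higher in WT. Over culture 2 of the 11 rose and 2 fell in WT, beside 15.1% and 18% of all genes. In KO 1 rose and 1 fell, beside 10.3% and 13%. *Inpp5d* (SHIP-1), an inositol phosphatase that restrains PI3-kinase signaling, was at 195 to 223 CPM (WT) and 232 to 239 CPM (KO) at 0 h and at 464 to 482 CPM (WT) and 239 to 256.5 CPM (KO) at 4 h. It rose in WT (1.16 ± 0.06, edgeR adjusted p = 8.45e-13), the KO value was 0.09 ± 0.06 (0.284), and the changes differed by 1.07 ± 0.08 (1.04e-08). *Irak3* (IRAK-M), a pseudokinase that inhibits IRAK signaling, rose in WT (0.23 ± 0.08, edgeR adjusted p = 0.0225) and stood at 104 ± 6.49 CPM (WT) and 68.6 ± 5.32 CPM (KO) at 4 h (SD, n = 3). The difference at 4 h was 0.59 ± 0.08 (edgeR adjusted p = 9.08e-05), and the changes differed by 0.39 ± 0.11 (0.0345). The WT rise was lost without WT 0 h replicate 1 or WT 4 h replicates 1 or 2, and the difference of the changes in 7 of 17 alternative fits, with edgeR adjusted p up to 0.0941 and 0.115. *Nlrc3*, a NOD-like receptor that limits TLR signaling, fell in WT (-1.06 ± 0.15, edgeR adjusted p = 7.92e-06) and in KO (-0.70 ± 0.15, 0.00121). *Tollip* fell in WT (-0.24 ± 0.08, edgeR adjusted p = 0.0297), a call lost in 4 of 18 alternative fits, and the KO value was -0.06 ± 0.08 (0.689). *Tnfaip3* rose in KO (0.27 ± 0.08, edgeR adjusted p = 0.0219), a call lost in 3 of 18 alternative fits, and the WT value was 0.13 ± 0.08 (0.248).

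**Figure D5:**
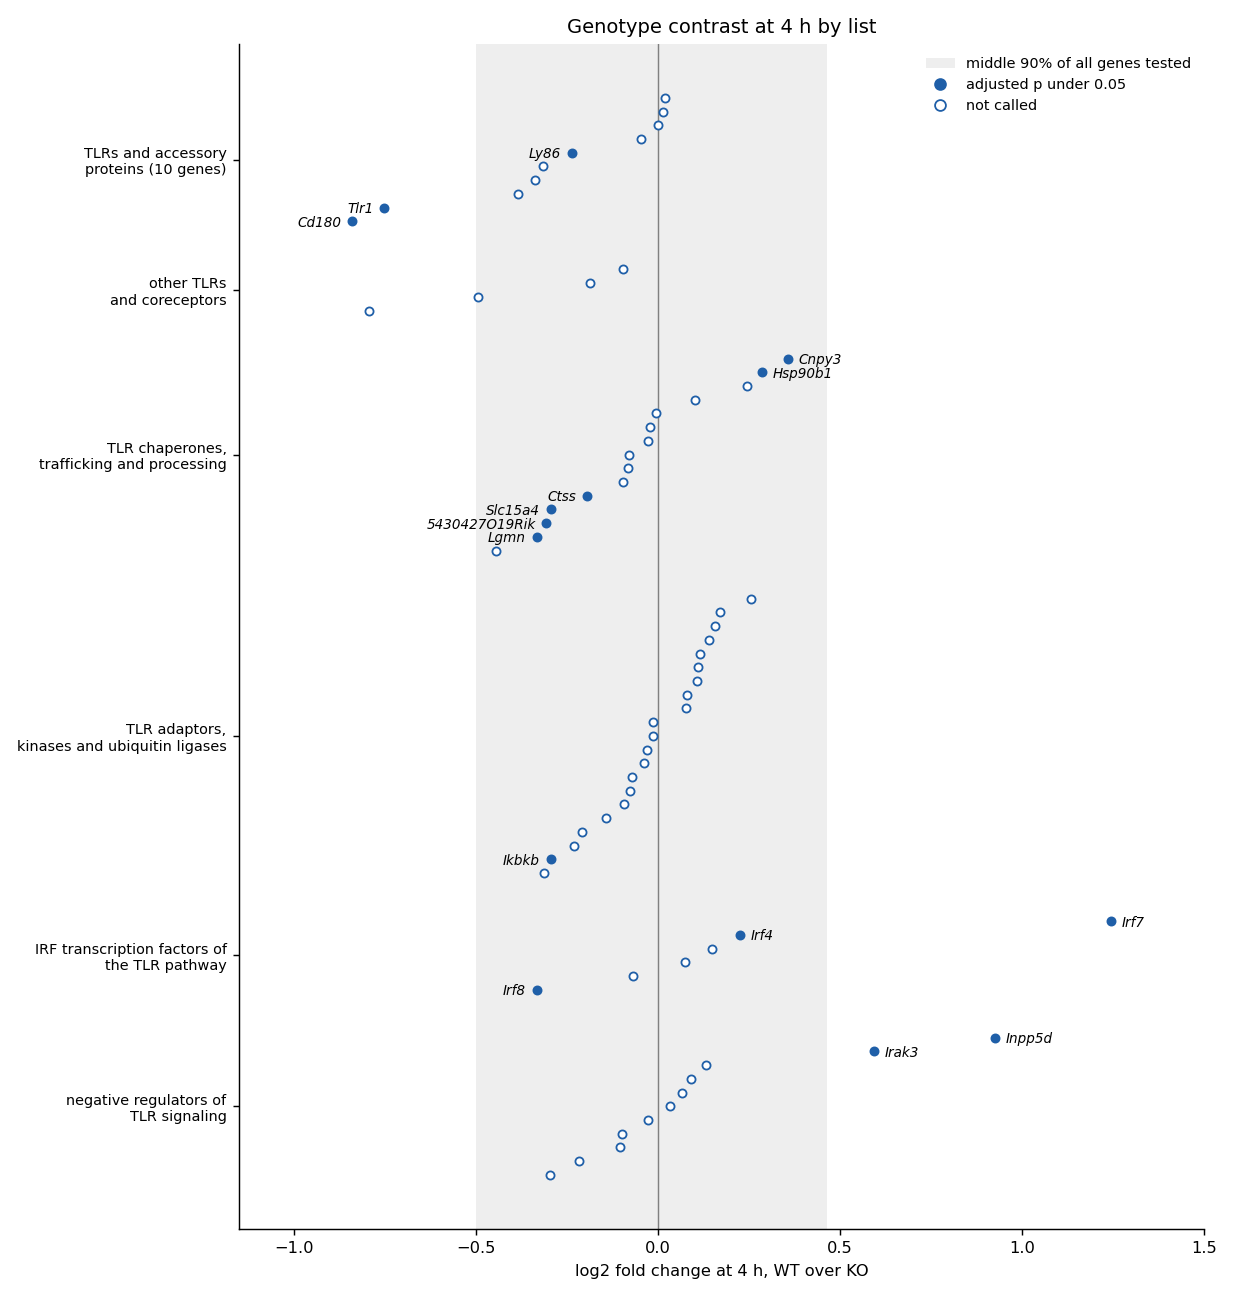
Log2 fold change at 4 h (WT over KO) of the 10 TLR and accessory genes and of the 5 pathway lists, 1 circle per gene, filled and named where the adjusted p was under 0.05. The grey band holds the middle 90% of all genes tested, from -0.50 to 0.46. *Cd180*, *Tlr1*, *Irf7*, *Inpp5d* and *Irak3* are the called genes outside it.

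Across the 12 libraries, genes outside the list whose log2 CPM ran close to that of *Cd180* were *Slamf1* (Pearson r = 0.993) and *Nedd9* (0.992). Those most like *Tlr1* were *Swap70* (0.993), *Cmah* (0.992) and *Sh3kbp1* (0.991). *Slamf1* averaged 86.1 CPM (WT) and 88.7 CPM (KO) at 0 h and 10.3 CPM (WT) and 33.8 CPM (KO) at 4 h. *Swap70* averaged 1009 and 954.5 CPM at 0 h and 406 and 771 CPM at 4 h in the same order. *Tlr1* and *Cd180* had r = 0.972 with each other. The points share libraries, depth and the split by time, so these coefficients describe likeness over 4 groups and carry no test.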

How the data were processed

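RNA was sequenced from 12 libraries of sorted splenic B cells, 3 for each genotype and time. The authors aligned single-end reads to mm10 with STAR, counted them per gene with HTSeq, and deposited the raw counts, 1 table for each time. Versions, annotation and strand setting were not given in the sources used here. The smallest row sum was 10, so a gene without a row had fewer reads. The 12837 genes in both tables entered the comparisons over time.

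Groups followed the labels. The study gives 3 mice per genotype. Whether the libraries of 0 h and 4 h with the same number came from the same mouse was not stated in the sources used here, and the fits treated them as independent. Genotypes were compared within each time, and culture and the interaction in a joint fit, with edgeR 4.0.16 (quasi-likelihood test, TMM scaling, filterByExpr, R 4.3.3) and Benjamini-Hochberg adjustment over all genes, called under 0.05. Standard errors were the log2 fold change over the square root of F. Levels are CPM on TMM-scaled sizes, divided by GENCODE vM21 exon length (GRCm38) where given per kilobase. Alternatives were DESeq2 1.42.0, other scalings, no filter, other libraries in the fit, a replicate block and leaving out each library. Scripts were tested on simulated data.

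The members and gene lists were chosen with earlier results of these data known. All members are named, with up to 4 called genes of each pathway list in each contrast by smallest p, and the 3 genes most like each member called in the interaction. Of the latter, 1 gene is not reported here. Other genes were named after their values were seen.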

Additional observations from a re-analysis of the deposited data

Results flagged for a closer look

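The change over culture differed between WT and KO, by the interaction test of edgeR over all genes, for 10 of the genes described. Each value is the WT change minus the KO change on the log2 scale with its standard error. Among the TLR and accessory genes it was -0.83 ± 0.08 for *Tlr1* (edgeR adjusted p = 3.87e-07) and -0.83 ± 0.10 for *Cd180* (4.6e-06). In the pathway lists it was 1.07 ± 0.08 for *Inpp5d* (edgeR adjusted p = 1.04e-08), 0.453 ± 0.098 for *Cnpy3* (0.0052) and 0.459 ± 0.122 for *Irf1* (0.0248). It was 0.307 ± 0.082 for *Hsp90b1* (edgeR adjusted p = 0.026) and 0.389 ± 0.109 for *Irak3* (0.0345). The KO change was the more positive for *Slc15a4* (-0.487 ± 0.117, edgeR adjusted p = 0.0119), *Lgmn* (-0.373 ± 0.093, 0.0154) and *Ikbkb* (-0.383 ± 0.099, 0.0204). Leaving out 1 library ended several of these calls. The *Hsp90b1* call was lost without WT 0 h replicates 2 or 3, KO 0 h replicates 1 or 3, WT 4 h replicate 3 or KO 4 h replicates 1 or 2, with edgeR adjusted p up to 0.0927. The *Irak3* call was lost without WT 0 h replicate 1, KO 0 h replicates 1 or 2, WT 4 h replicates 1 or 2 or KO 4 h replicates 1 or 3, with edgeR adjusted p up to 0.115. The *Irf1* call was lost without WT 0 h replicate 2, KO 0 h replicates 1 or 3, WT 4 h replicate 3 or KO 4 h replicates 1 or 2, with edgeR adjusted p up to 0.0876. The *Ikbkb* call was lost with library totals alone and without WT 0 h replicate 2, KO 0 h replicate 3, WT 4 h replicates 1 or 3 or KO 4 h replicate 2, with edgeR adjusted p up to 0.0674, and that of *Lgmn* without KO 4 h replicate 2 (0.0555). The *Tlr1*, *Cd180*, *Inpp5d*, *Cnpy3* and *Slc15a4* calls held in all 17 alternative fits.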

How the results depend on the processing

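Over the alternatives, the 10 TLR and accessory genes kept direction and side of the threshold in 113 of 120 values at 0 h, 102 of 120 at 4 h, 169 of 180 for culture in WT, 179 of 180 for culture in KO and 165 of 170 for the interaction, and the named pathway genes in 105 of 120 at 4 h, 321 of 342, 266 of 270 and 109 of 136. With library totals alone the log2 fold change at 4 h was -0.0086 for *Tlr9* and -0.0035 for *Myd88*, and the *Myd88* culture change was 0.096 in WT and 0.0044 in KO. With no filter *Unc93b1* was 0.00083 at 4 h. Among pathway genes at 0 h, DESeq2 called 2. Libraries with the same replicate number had correlated deviations from the group means of 0.0718 to 0.126 over time in WT and -0.0402 to 0.152 in KO, and of -0.0986 to 0.0728 between genotypes. Over time every WT library and all KO libraries except replicate 1 correlated best with their own number, a hint from the data that the numbers may mark a mouse, which was not stated. With the replicate block 1 pathway gene was called at 0 h, and the members called stayed at 0, 3, 9, 8 and 2 over the 5 contrasts.

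Leaving out 1 library at a time gave 26 (without KO 0 h replicate 1) to 161 genes called at 0 h, where all libraries gave 112, with 0 to 1 members and 0 to 1 pathway genes. At 4 h it gave 776 (without KO 4 h replicate 1) to 1361 genes, 2 to 4 members and 7 to 11 pathway genes, and 4 to 8 pathway genes in the interaction. Values that changed sign ran, at 0 h, from -0.12 to 0.0030 (*Tlr4*), -0.12 to 0.088 (*Tlr6*), -0.069 to 0.028 (*Cd180*) and -0.11 to 0.020 (*Myd88*). At 4 h they ran from -0.56 to 0.14 (*Tlr7*), -0.027 to 0.052 (*Tlr9*), -0.016 to 0.017 (*Unc93b1*) and -0.083 to 0.095 (*Myd88*). *Myd88* ran from -0.11 to 0.068 for culture in WT. In the interaction the ranges were -0.51 to 0.15 (*Tlr3*), -0.33 to 0.39 (*Tlr7*) and -0.019 to 0.15 (*Myd88*). The cause of these changes was not tested. *Tlr3* rested on 22 to 143 reads per library and *Tlr6* on 36 to 91.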
